A study of Homo sapiens with 24 samples.

Results

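Complex I (NADH:ubiquinone oxidoreductase) is the entry point of electrons into the mitochondrial respiratory chain, and its nuclear genes were followed here in triple-negative breast cancer (TNBC) cell lines. Members were the genes whose symbol is NDUF followed by A, B, C, S, V, AB or AF and a number. There were 46 such genes in all, of which 45 were among the 19283 rows of the Hs578T table, 45 among the 18248 of HCC70, 46 among the 60651 of the KIF20A depletion table and 46 among the 23792 of the overexpression table. NDUFAF8 stood under its older symbol in both sorted tables and was read apart there. By role, 7 members encode the core subunits shared with bacteria, 30 encode accessory subunits, 8 encode assembly factors, and NDUFA4 was kept apart because its protein is assigned to complex IV.

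The study sought regulators of breast cancer stem cells (BCSCs) and followed the mitotic kinesin KIF20A, and its RNA-Seq series holds 24 libraries, 3 biological replicates in each of 8 conditions. BCSCs (CD24-CD44+ and ALDH+) and non-BCSCs lacking both features were sorted by flow cytometry from the wild-type TNBC lines Hs578T and HCC70. MDA-MB-231 cells, a mesenchymal TNBC line, carried either control sgRNA (sgCtrl) or KIF20A sgRNA 1 (KIF20A sg1), and in a separate batch either empty vector (EV) or KIF20A overexpression (KIF20A OE), by lentivirus and puromycin selection. Each line or experiment is a labelled batch of its own, so comparisons were made inside each, and the sgRNA and vector cells are selected populations of 1 line.

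The complex is shaped like an L. Its matrix arm takes electrons from NADH through a flavin and a chain of iron-sulfur clusters to ubiquinone, and its membrane arm pumps protons. The core subunits NDUFV1, NDUFV2 and NDUFS1 form the NADH-oxidizing end, NDUFS3, NDUFS7 and NDUFS8 are among those that lead to the quinone site, and 7 further core subunits are encoded by mtDNA (MT-ND genes). Accessory subunits form a shell that is needed for assembly and stability, and the NDUFAF proteins help to build the complex but are not part of it. Of the nuclear subunits, 16 lie in the matrix arm, 9 in the proximal and 11 in the distal membrane arm, and NDUFAB1, the acyl carrier protein, lies in both.

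Libraries of Hs578T held 28403151 to 33973761 recovered reads and those of HCC70 24984030 to 33986022. The sgRNA libraries held 41424338 to 51018667, and the EV and KIF20A OE libraries 15971297 to 22182293. Values of the sorted lines are TPM, which are scaled to the library and divided by gene length, and those of MDA-MB-231 are CPM, which are scaled to the library only. The targeted gene KIF20A was at 153.0, 173.2 and 155.9 CPM in sgCtrl and at 122.4, 144.8 and 91.09 CPM in KIF20A sg1, lower in each depleted library but not past the test (log2 fold change -0.45, adjusted p = 0.69). In EV it was at 101.1, 142.9 and 123.7 CPM, below the 1348, 269.4 and 896.2 CPM of the group labelled KIF20A OE. In the sorted lines, where it was not manipulated, KIF20A was higher in BCSCs, at 296.5 against 216.9 TPM in Hs578T (adjusted p = 0.00718) and 124.8 against 71.4 TPM in HCC70 (adjusted p = 0.00157).

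The libraries labelled KIF20A OE went against the label MDA-MB-231. The 3 mesenchymal markers of that line, VIM, CD44 and AXL, were all lower than in EV. Their sum was 349 to 776 CPM against 3850 to 4490 CPM in EV and 3460 to 4110 CPM in the sgRNA libraries. AXL was at 0.771 against 962 CPM in EV and CD44 at 0.557 against 642 CPM. VIM, at 775.5, 347.4 and 543.6 CPM, overlapped the 554.6, 688.8 and 794.6 CPM of sgCtrl, which is another batch. All 6 markers not known in MDA-MB-231 were higher, with a sum of 1730 to 2280 CPM against at most 0.0476 CPM in EV, led by IRS4 at 1571 CPM and CDKN2A at 321.8 CPM. The identity of these cells and the labelled overexpression cannot be told apart, since all 3 libraries of the group had this profile.

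The genes are shown first by the letters near their RefSeq start sites (GRCh38.p14), because nuclear respiratory genes are known targets of shared promoter factors. Windows of 250 bases before to 50 after each start were given for 39 of the 46 members and for 27305 genes in all. A gene was counted where any of its windows held the letters. The 8 letters GCATGCGC are the core of the site of NRF1, a factor known for nuclear respiratory genes. They stood on either strand in 8 members (20.5%) against 3.68% of all genes. These were NDUFA5, NDUFA6, NDUFA8, NDUFS6, NDUFS7, NDUFB4 and the assembly genes NDUFAF4 and NDUFAF5. CCGGAAG, the letters bound by ETS family factors, stood in 7 members (17.9%) against 12.16%. GGGCGG, the GC box of SP1, stood in 25 (64.1%) against 48.3%. The letters AAGATGGC, bound by YY1, stood in 8 members (20.5%) against 3.52%. In all 8 of these they lay on the given strand within the first 40 bases after the start, as in 1.48% of all genes. Of the 8 ATG triplets inside them, 7 were the annotated start codon (all but that of NDUFAF8). Such a match is a description of letters and not a site shown to be used.

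The letters AAGATGGC (in capitals) of these 8 members follow, with 8 bases on each side. The members include NDUFB8, which the study followed by RT-qPCR, and NDUFS7 and NDUFS4, to which the results below return.
NDUFA3 (chr19:54102868-54102891, plus strand): cggagacaAAGATGGCtgcgagta
NDUFA6 (chr22:42090732-42090755, minus strand): gctttggcAAGATGGCggggagcg
NDUFA7 (chr19:8321346-8321369, minus strand): gcggacggAAGATGGCgtccgcca
NDUFA9 (chr12:4649116-4649139, plus strand): tgtgggaaAAGATGGCggctgccg
NDUFAF8 (chr17:81239319-81239342, plus strand): acggacctAAGATGGCggcctcca
NDUFB8 (chr10:100529839-100529862, minus strand): agaaggtgAAGATGGCggtggcca
NDUFS4 (chr5:53560652-53560675, plus strand): cctgcagcAAGATGGCggcggtgt
NDUFS7 (chr19:1383916-1383939, plus strand): ccgaggccAAGATGGCggtgctgt

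The upstream stretches of 3 members whose values differed in a comparison or are of different roles are NDUFB4 with the NRF1 letters on both strands in capitals, and NDUFB7 and the assembly gene NDUFAF4 with CCGGAAG on the printed strand or its complement CTTCCGG in capitals. Each is printed in the direction of its gene and ends at or shortly before the start.
NDUFB4 (chr3:120596086-120596327, plus strand): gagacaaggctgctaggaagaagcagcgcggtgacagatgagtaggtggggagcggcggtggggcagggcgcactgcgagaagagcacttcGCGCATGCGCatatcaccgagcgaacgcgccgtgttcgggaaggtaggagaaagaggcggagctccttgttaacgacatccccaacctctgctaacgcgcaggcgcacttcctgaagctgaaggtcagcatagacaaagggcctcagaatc
NDUFB7 (chr19:14572067-14572316, minus strand): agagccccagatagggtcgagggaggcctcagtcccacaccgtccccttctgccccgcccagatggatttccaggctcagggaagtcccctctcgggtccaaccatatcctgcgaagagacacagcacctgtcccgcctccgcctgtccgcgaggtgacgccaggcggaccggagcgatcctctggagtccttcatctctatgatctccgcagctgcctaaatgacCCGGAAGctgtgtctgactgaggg
NDUFAF4 (chr6:96897892-96898141, minus strand): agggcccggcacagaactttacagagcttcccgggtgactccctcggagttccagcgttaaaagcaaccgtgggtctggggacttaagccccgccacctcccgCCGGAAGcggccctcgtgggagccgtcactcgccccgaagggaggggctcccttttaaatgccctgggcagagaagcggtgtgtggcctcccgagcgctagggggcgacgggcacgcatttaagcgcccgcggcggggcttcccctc

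By median level per length, core and accessory genes stood above the assembly genes in all 8 conditions. In Hs578T non-BCSCs the median was 161 TPM over core members (61.6 to 217), 166 TPM over accessory members (34.6 to 652) and 24.7 TPM over 7 assembly members (10.2 to 54.3). In HCC70 non-BCSCs these medians were 96.2, 156 and 10.7 TPM. In sgCtrl they were 45.0, 31.0 and 8.67 CPM per kilobase of the canonical transcript, and in EV 44.7, 43.3 and 9.75 CPM per kilobase. NDUFS5, an accessory subunit with a twin CX9C motif on the intermembrane side, was the highest member in Hs578T non-BCSCs (652 ± 12.0 TPM, SD, n = 3), in HCC70 BCSCs (454 ± 29.6 TPM), in sgCtrl (219 ± 26.9 CPM per kilobase) and in EV (294 ± 35.4 CPM per kilobase). In Hs578T BCSCs it stood at 545 ± 44.8 TPM below NDUFB9 at 582 ± 34.3 TPM, neighbours whose SD ranges overlap, as do those of NDUFS5 and NDUFS8 (200 ± 20.8 CPM per kilobase) in sgCtrl. In HCC70 non-BCSCs NDUFB1 (422 ± 22.7 TPM), NDUFS6 (407 ± 21.8 TPM) and NDUFS5 (398 ± 18.5 TPM) likewise lay within the spread of one another.

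The 2 marker genes of the complex were both present and kept different places. NDUFV1, the flavin-binding core subunit, was in the middle of the order in the sorted lines, at 161 ± 7.37 TPM in Hs578T non-BCSCs (rank 21 of 45), and higher up in MDA-MB-231, at 86.7 ± 14.7 CPM per kilobase in sgCtrl, where it ranked 6 of 46. NDUFB8, a distal arm subunit, was at 198 ± 6.03 TPM in Hs578T non-BCSCs, rank 11 of 45, but at 4.48 ± 1.67 CPM per kilobase in sgCtrl and 1.89 ± 0.37 CPM per kilobase in EV, rank 41 of 46 in both.

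These places went with overlapping gene models. In GENCODE 44, 5 members share over 60% of the bases of their canonical transcript with exons of another gene on the same strand. The share was 90.0% for NDUFV2, 83.9% for NDUFA13, 77.9% for NDUFA7, 72.0% for NDUFB8 and 68.2% for NDUFA11. In the sorted lines these 5 had levels of 24.1 to 356% of the median member (median 136%). The 36 members that share no base on the same strand had 5.78 to 427% (median 108%). Some of these overlap a gene on the opposite strand, as NDUFS7 does by 51.3%, which is the lowest of them in EV. In the sgRNA libraries the 5 were at 0.973 to 46.0% (median 11.4%) against 6.78 to 757% (median 154%) for the 37 that share none on the same strand. In EV they were at 0.13 to 63.3% (median 0.769%) against 2.98 to 700% (median 113%), so the ranges overlap in all tables. The 4 members sharing 1 to 60% had medians of 103%, 19.1% and 15.9% in the sorted, sgRNA and EV libraries. Their canonical transcripts are long (2168 to 11660 bases), and only the MDA-MB-231 values were divided by these lengths here. The long members NDUFA10, NDUFA5, NDUFAF5 and NDUFV3 (4855 to 5725 bases) share no base on the same strand. They were at 9.26 to 89.2%, 6.78 to 48.5% and 5.07 to 38.8%, so overlap and length were not told apart. NDUFV2, which builds the N1a cluster, was at 217 TPM in Hs578T non-BCSCs but at 2.26, 1.352 and 1.123 CPM in sgCtrl and 0.4285, 0.04833 and 0.3528 CPM in EV. The genes that overlap the 5 members over 60% were low as well where they were listed. That of NDUFB8 (ENSG00000255339) was at 0 CPM in all 6 sgRNA libraries and at most 0.176 CPM in EV. The gene overlapping NDUFB5, which shares 10.1%, was at most 0.0477 CPM in the sgRNA libraries. In EV it was at 16.0, 29.0 and 26.0 CPM, beside 23.4, 25.3 and 21.7 CPM for NDUFB5. The part of read assignment in these levels was not tested, and in MDA-MB-231 the values of NDUFV2, NDUFA7 and NDUFB8 rest on few reads.

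**Figure D1:**
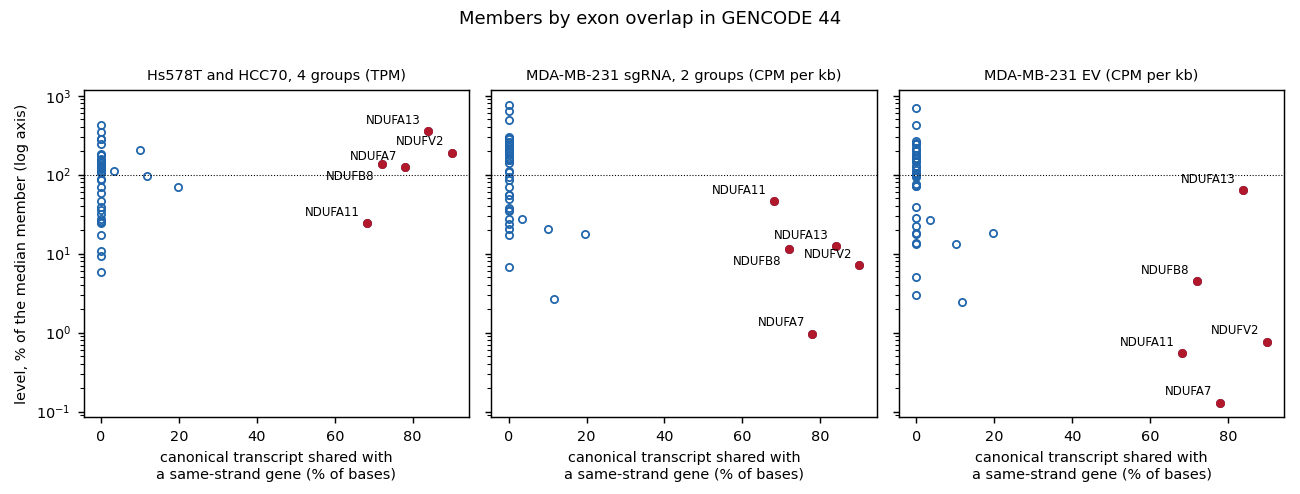
Level of each member as a percentage of the median member (log axis) against the share of its canonical transcript that overlaps exons of another gene on the same strand; filled points are the 5 members over 60%. These 5 lie among the others in Hs578T and HCC70 and mostly in the lower part of the range in the sgRNA and EV libraries, where NDUFB8 stands at 11.4% and 4.5%.

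The study's RT-qPCR primers for NDUFB8 are shown because they meet the same overlap.
NDUFB8 forward: acaggaaccgtgtggatacat
NDUFB8 reverse: ccccacccagcacatgaat
Both primers were found in 6 transcripts of NDUFB8 (ENSG00000166136, chr10:100523740-100530000, minus strand) and in 3 transcripts of the overlapping gene ENSG00000255339, with a product of 104 bases in each.

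Whether BCSCs differ from non-BCSCs in complex I transcripts was asked first in Hs578T. No member rose and 3 of 45 fell, all accessory subunits, by 12.4 to 17.5%. Over all 13324 genes tested, 2.9% rose and 4.26% fell, so the share of members that fell was near the background. NDUFA12, a matrix arm subunit related in sequence to the assembly factor NDUFAF2, was at 173.9, 169.6 and 159.9 TPM in non-BCSCs and at 143.3, 132.7 and 139.2 TPM in BCSCs. The groups did not overlap (log2 fold change -0.28 ± 0.05 SE, adjusted p = 0.0186). NDUFB2, a distal arm subunit, was at 162.4, 169.1 and 165.4 TPM against 146.6, 141.3 and 147.2 TPM, also apart (-0.19, adjusted p = 0.0325). NDUFS5 was at 665.1, 641.4 and 650.3 TPM against 536.0, 504.7 and 593.0 TPM, again with every BCSC library below every non-BCSC library (-0.26 ± 0.06 SE, adjusted p = 0.0455). These calls rest on all 6 libraries: without any 1 of them 0 to 2 members were called. DESeq2 on recovered reads did not call NDUFB2.

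The rest of the complex lay close to 0 in Hs578T. The median log2 fold change was -0.02 over the 45 members and -0.01 over all genes, with 19 members above 0 and 26 below. In 7 members every BCSC library was below every non-BCSC library, beside 17.0% of all genes. NDUFA1 (-0.14, adjusted p = 0.187), NDUFA5 (-0.10, adjusted p = 0.262) and NDUFV3 (-0.11, adjusted p = 0.262) lay lower and did not pass. NDUFA10 (0.10, adjusted p = 0.262), where every BCSC library lay above every non-BCSC library, did not pass either. Of the core members 0 of 7 passed, with values from -0.05 to 0.30. The highest of them, NDUFS7, which carries the N2 cluster next to the quinone site, was at 58.17, 58.29 and 68.45 TPM in non-BCSCs and at 67.11, 134.2 and 48.72 TPM in BCSCs. BCSC replicate 2 alone was high for it, as it was for NDUFS8 (218.3 TPM), NDUFS6 (223.8 TPM) and NDUFB7 (220.8 TPM). NDUFB8 had the same mean in both fractions, 197.8 TPM (SD 6.03 and 6.09), and NDUFV1 at 160.6 ± 7.37 and 165.1 ± 2.35 TPM. All 7 assembly members tested stayed within -0.12 to 0.13, with NDUFAF1, a chaperone of the membrane arm, at -0.12 (adjusted p = 0.18), and NDUFAF8 was at 81.7 and 81.1 TPM. Of 14 assembly factors with other names (ACAD9, ECSIT, TIMMDC1, FOXRED1, NUBPL and the like), 0 passed and the median was -0.01. In these bulk samples, less RNA per cell and fewer cells of a kind cannot be told apart. Of the genes behind the sort, ALDH1A3 was higher in the BCSCs (log2 fold change 1.29, adjusted p = 8.39e-06). CD44 (0.05, adjusted p = 0.507) and CD24 (-0.05, adjusted p = 0.717) did not pass, and ALDH1A1 was not listed for this line.

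In HCC70, 1 of 45 members passed the test. Over the 13218 genes tested, 2.28% rose and 0.552% fell. NDUFB7, a distal arm subunit with a twin CX9C motif, was at 129.7, 100.6 and 100.1 TPM in non-BCSCs and at 78.78, 73.59 and 61.96 TPM in BCSCs. All BCSC values lay below all others, and the mean was 35.1% lower (log2 fold change -0.61 ± 0.12 SE, adjusted p = 0.0463). The call was lost when any 1 of the 6 libraries was left out (adjusted p 0.0577 to 0.13), while the fold change stayed between -0.69 and -0.49. With libraries rescaled by the median of ratios NDUFB7 did not pass (-0.64, adjusted p = 0.0537) and NDUFV2 did (-0.29, adjusted p = 0.0488).

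NDUFS7 and members of other sites lay lower in HCC70 BCSCs without passing, while 4 of the 7 core members were above 0. NDUFS7 was at 29.19, 12.93 and 11.09 TPM in non-BCSCs and at 5.953, 7.495 and 5.207 TPM in BCSCs, with a log2 fold change of -1.26 ± 0.31 SE (adjusted p = 0.0703). Non-BCSC replicate 1 was the high one, and without it the change was -0.86 and passed (adjusted p = 0.0363). NDUFV2 was at 267.2, 240.0 and 252.2 TPM against 205.2, 203.9 and 223.4 TPM, with no overlap (-0.26, adjusted p = 0.0667). NDUFA11, a proximal arm subunit, was at 13.51 ± 0.278 against 10.65 ± 0.907 TPM (-0.32, adjusted p = 0.0656). NDUFS6, a zinc-binding matrix arm subunit, was at 407.2 ± 21.8 against 351.0 ± 14.1 TPM (-0.21, adjusted p = 0.0997). NDUFB3 (-0.26, adjusted p = 0.108) and NDUFB6 (-0.20, adjusted p = 0.14) of the distal arm also lay lower without passing. NDUFS7 shares 51.3% of its canonical transcript with a gene on the opposite strand, and the strand setting of the counting is not given in the sources used here.

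Across the complex in HCC70 the median log2 fold change was -0.08 over members and 0.02 over all genes tested, with 28 of 45 members below 0. In 12 members every BCSC library lay below every non-BCSC library, beside 10.1% of all genes. Of the distal arm 9 of 11 members were below 0 and 5 were apart in that direction. Of the assembly members 6 of 7 were below 0 and 0 passed. The count depended on the test. On reads recovered from the table, edgeR called 5 members lower (NDUFB7, NDUFV2, NDUFS7, NDUFA11 and NDUFS6), beside 2.04% of genes, and DESeq2 called 8 lower, with NDUFAB1, NDUFB3 and NDUFC2 added, beside 4.06%. Neither called a member higher. Of the other 14 assembly factors 0 passed, with a median of -0.00. NDUFB8 was at 135.6 ± 8.11 and 126.8 ± 3.89 TPM and NDUFV1 at 96.23 ± 5.85 and 98.02 ± 10.9 TPM. None of the sorting genes listed for HCC70 passed, with CD24 at -0.31 (adjusted p = 0.0543), ALDH1A1 at 0.13 (adjusted p = 0.164), ALDH1A3 at 0.17 (adjusted p = 0.179) and CD44 at 0.04 (adjusted p = 0.788). The groups did not overlap for CD24, lower in BCSCs, and for ALDH1A1, higher in BCSCs.

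**Figure D2:**
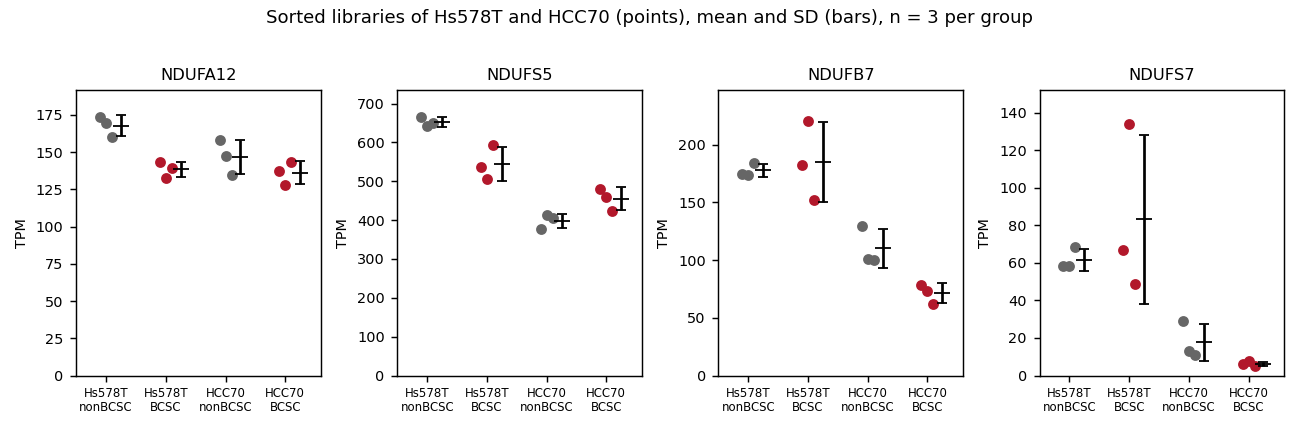
TPM per library (points) with the mean and SD (bars), n = 3, of NDUFA12, NDUFS5, NDUFB7 and NDUFS7 in non-BCSCs (grey) and BCSCs (red) of Hs578T and HCC70. NDUFS5 was lower in BCSCs of Hs578T and at 398.0 and 454.5 TPM in the fractions of HCC70, where it did not pass, and a single BCSC library of Hs578T sets the mean of NDUFS7.

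The difference between the lines was tested itself, as Hs578T minus HCC70 on the log2 scale. It passed for 1 of 45 members and for 7.11% of 11668 genes. NDUFS5 fell by 0.26 in Hs578T BCSCs and was 0.19 above non-BCSCs in HCC70 (377.1, 412.1 and 404.7 against 481.2, 459.7 and 422.7 TPM, not passing there with an adjusted p of 0.147), a difference of -0.45 ± 0.09 SE (adjusted p = 0.0177). It no longer passed without BCSC replicate 1 of Hs578T (adjusted p = 0.0519) or of HCC70 (adjusted p = 0.0544). NDUFB7 (0.66, adjusted p = 0.0581) and NDUFS7 (1.57, adjusted p = 0.0773) came next and did not pass. Of the 45 members 16 lay lower in BCSCs of both lines and 7 higher in both, 10 were lower in Hs578T and higher in HCC70, and 12 the reverse. The lines are also batches, so line and batch cannot be told apart.

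Summed over the 37 core and accessory members, complex I transcripts were at 6814 to 7000 TPM in Hs578T non-BCSCs and 6542 to 6828 TPM in BCSCs, ranges that overlap. In HCC70 they were at 5831 to 5927 TPM and 5563 to 5667 TPM, which do not. The assembly members summed to 198.8 to 215.8 and 206.7 to 223.2 TPM in Hs578T and to 109.2 to 121.5 and 102.2 to 109.0 TPM in HCC70. Sums are led by the highest genes and are given with no test.

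**Figure D3:**
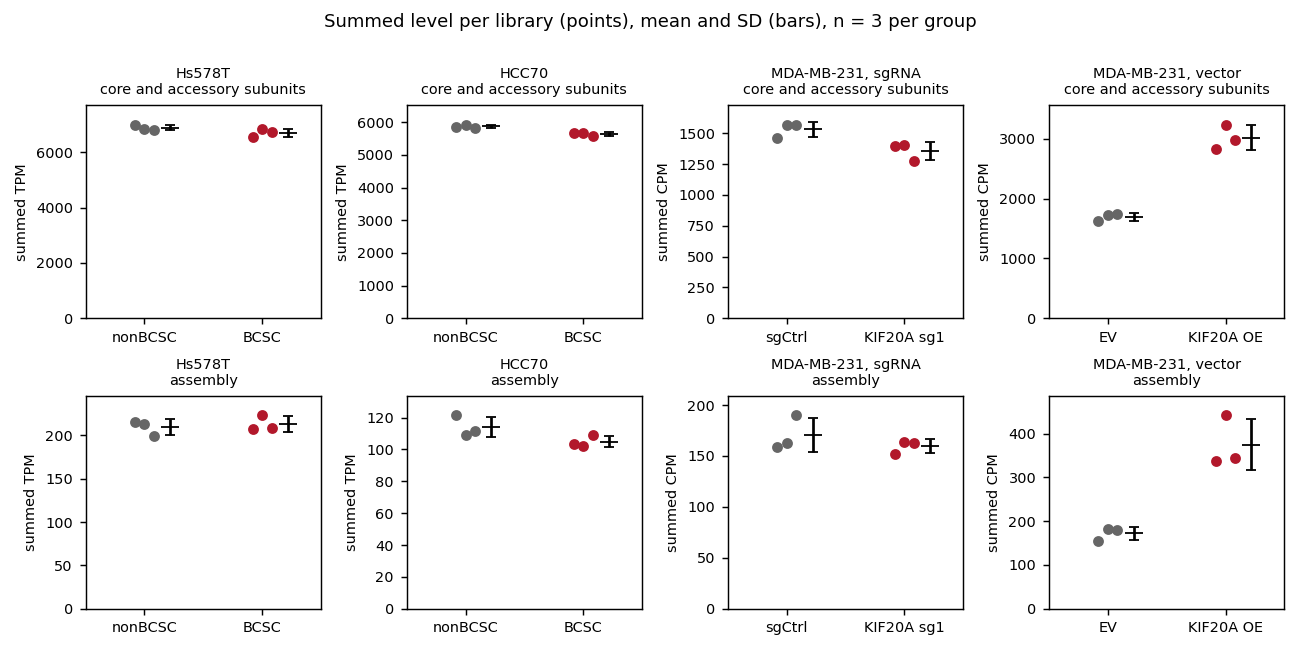
Summed level per library (points) with mean and SD (bars), n = 3, of the core and accessory members (upper row) and the assembly members (lower row) in each pair of groups, in TPM for the sorted lines and CPM for MDA-MB-231. The libraries labelled KIF20A OE stand highest of their panels, at 2836 to 3239 CPM against 1624 to 1737 CPM in EV for the subunits.

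KIF20A depletion was compared next, to ask which complex I transcripts go with the loss of KIF20A in MDA-MB-231. By limma 0 of 45 members passed, as did 0.0% of the 12852 genes tested, and NDUFA7 was under the minimum of 1 CPM. The members nevertheless lay low as a group: 36 of 45 were below 0, beside 49.6% of all genes, and the median log2 fold change was -0.15 over members and 0.00 over all genes. At an unadjusted p under 0.05 there were 8 members, all lower, where 4.72% of genes were lower and 2.28% higher at that level. In 14 members every KIF20A sg1 library lay below every sgCtrl library, beside 7.3% of genes.

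The 8 members with the smallest p came from both arms. NDUFA1, a small proximal arm subunit, was at 37.83, 41.72 and 25.15 CPM in sgCtrl and at 21.67, 19.76 and 17.91 CPM in KIF20A sg1, a mean 43.3% lower (log2 fold change -0.76 ± 0.19 SE, adjusted p = 0.69). NDUFS6 was at 48.31, 48.42 and 34.14 CPM against 31.43, 26.45 and 22.35 CPM (-0.68, adjusted p = 0.69). NDUFV1 was at 147.7, 149.4 and 108.6 CPM against 102.8, 90.55 and 94.02 CPM (-0.48, adjusted p = 0.69). The groups did not overlap in any of the 3, and sgCtrl replicate 3 was the control nearest to the depleted libraries in each. NDUFB8 was at 3.862, 3.504 and 1.745 CPM against 1.275, 1.552 and 1.503 CPM, a mean 52.5% lower on few reads (-0.68 ± 0.23 SE, adjusted p = 0.69). NDUFA2 (-0.61), NDUFB7 (-0.40), NDUFB3 (-0.37) and NDUFA8 (-0.29) had the same direction and adjusted p.

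That control decided the calls. Without sgCtrl replicate 3, NDUFA1 (-0.98, adjusted p = 0.0248), NDUFV1 (-0.63, adjusted p = 0.0347) and NDUFS6 (-0.84, adjusted p = 0.0422) passed, beside 1.06% of all genes that fell, and without any other library 0 members passed. With all libraries DESeq2 on recovered reads called NDUFA1 (-0.82, adjusted p = 0.0465), beside 0.07% of genes lower, and edgeR called 0.

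**Figure D4:**
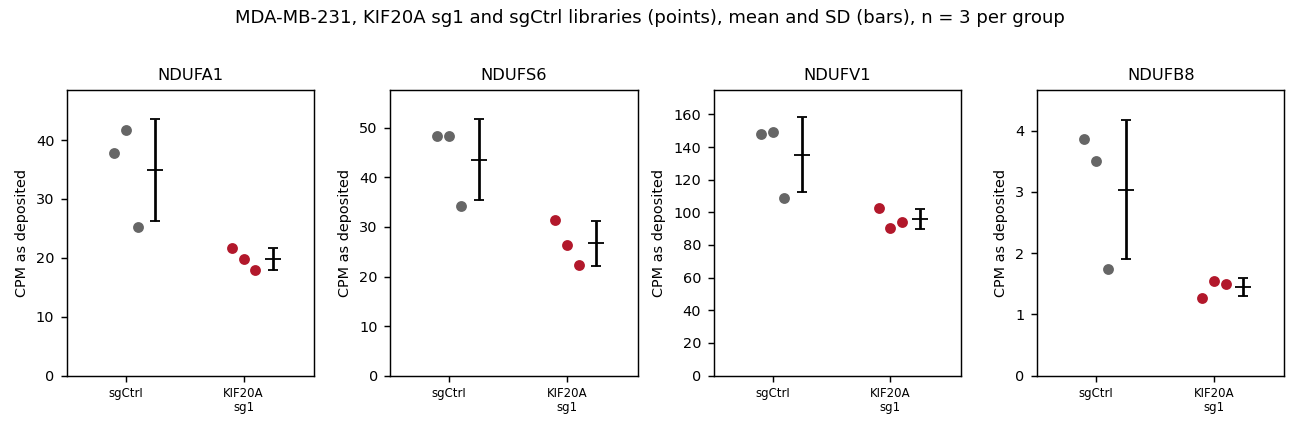
CPM per library (points) with mean and SD (bars), n = 3, of NDUFA1, NDUFS6, NDUFV1 and NDUFB8 in sgCtrl (grey) and KIF20A sg1 (red). In each, the third sgCtrl library lies nearest to the depleted ones, as for NDUFB8 at 1.745 CPM against 1.275 to 1.552 CPM.

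By role, 5 of 7 core, 25 of 29 accessory and 5 of 8 assembly members were below 0 after depletion, with medians of -0.19, -0.15 and -0.11. The core members above 0 were NDUFS1 (0.12), which holds several of the iron-sulfur clusters of the matrix arm, and NDUFV2 (0.18), whose means in the control and depleted cells were 1.579 and 1.923 CPM. Of the assembly members NDUFAF1 was lowest at -0.25 and NDUFAF4 highest at 0.11, and their sum was at 159.0 to 190.1 CPM in sgCtrl and 151.8 to 163.8 CPM in KIF20A sg1. The sum of the subunits was at 1464 to 1570 CPM and 1274 to 1405 CPM, with no overlap. Among the 14 other assembly factors 10 were below 0, the median was -0.10 and 0 passed. The 7 mtDNA subunits, which this table alone lists, were all above 0 (0.04 to 0.83) with overlapping groups and 0 passed. Their sum was at 3732 to 10330 CPM in sgCtrl and 6264 to 13780 CPM in KIF20A sg1, a wide range among the controls themselves in these poly-A libraries.

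In the libraries labelled KIF20A OE, 33 of 43 members tested, NDUFS7 with an EV level under the minimum among them, rose and 1 fell against EV, where 46.2% of 15265 genes rose and 23.4% fell. The median log2 fold change was 0.83 over members and 0.37 over all genes. With libraries rescaled by the median of ratios, which brings the median of all genes to 0.03, 26 members rose and 4 fell with a member median of 0.47, beside 33.8% of genes that rose and 33.0% that fell. NDUFA7, NDUFA11 and NDUFV2 were under the minimum. The direction cannot be assigned to KIF20A, since the cells differed in the markers of their line as given above.

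The largest change on the log2(value + 1) scale was that of NDUFB9, a distal arm subunit with an LYR motif. It was at 26.8, 34.56 and 30.57 CPM in EV and at 114.5, 131.1 and 135.3 CPM in the labelled libraries (log2 fold change 2.02 ± 0.14 SE, adjusted p = 5.19e-06). By edgeR on recovered reads NDUFS7, low in EV, changed more (1.93) than NDUFB9 (1.70). NDUFB10 was at 64.41, 71.14 and 70.2 CPM against 212.1, 277.2 and 239.3 CPM (1.80), and NDUFB11 at 46.08, 57.66 and 57.97 CPM against 142.7, 157.8 and 154.1 CPM (1.48). The groups were far apart in all 3, and each also rose after the rescaling (1.66, 1.44 and 1.12). Other members called were NDUFC1 (1.41), NDUFA6 (1.23) and NDUFA10 (1.22) of the proximal and matrix arms, and 3 of the 11 distal members did not pass. NDUFB8 was at 1.571, 1.16 and 1.117 CPM against 5.072, 5.004 and 4.39 CPM (1.35, adjusted p = 0.000261), again on few reads.

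The 6 core members tested rose on the values as deposited, with NDUFS1 at 0.46, NDUFS8 at 0.52 and NDUFS3 at 1.04. After the rescaling NDUFS1 and NDUFS8 no longer passed, while NDUFS3 (0.68) and NDUFV1 (0.38) still did. NDUFV1 was at 126.5, 146.3 and 118.8 CPM against 203.6, 246.3 and 206.4 CPM (0.74, adjusted p = 0.00105). NDUFS7 was at 0.9468 ± 0.276 against 4.629 ± 0.637 CPM (1.54). It passed the minimum only through the labelled group and so had to differ, while NDUFV2, low in both groups, was not tested, so the core count is no support for a direction of the core. Of 8 assembly members 6 rose, led by NDUFAF4, a factor of the quinone-end assembly steps, at 10.85, 15.42 and 13.58 against 51.72, 56.67 and 45.56 CPM (1.88, adjusted p = 2.8e-05) and by NDUFAF8 (1.52), while NDUFAF2 and NDUFAF6 did not pass. After the rescaling 4 rose, NDUFAF4 (1.53), NDUFAF8 (1.16), NDUFAF3 (0.94) and NDUFAF5 (0.61), and NDUFAF1 and NDUFAF7 no longer passed. Of the other 14 assembly factors 9 rose and 0 fell. NDUFA4 of complex IV was at 96.81 CPM in EV with a log2 fold change of 0.04 and did not pass.

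The single member that fell was NDUFS4, a matrix arm subunit known from Leigh syndrome, at 58.7, 55.14 and 59.5 CPM in EV and 40.7, 37.42 and 41.22 CPM in the labelled libraries (-0.53, adjusted p = 0.00382). NDUFC2 (-0.39), NDUFB5 (-0.25) and NDUFB7 (-0.12) were below 0 and did not pass on the values as deposited. After the rescaling these 3 fell as well (-0.73, -0.60 and -0.48), and NDUFS4 was at -0.89. NDUFS5, the highest member in EV, was at 145.7 ± 17.5 against 157.8 ± 13.1 CPM with overlapping groups. In the plot of fold changes, the range was -0.53 to 2.02 in this comparison, -0.76 to 0.18 after depletion and -0.28 to 0.30 in Hs578T, and the lowest value in HCC70 was -1.26.

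**Figure D5:**
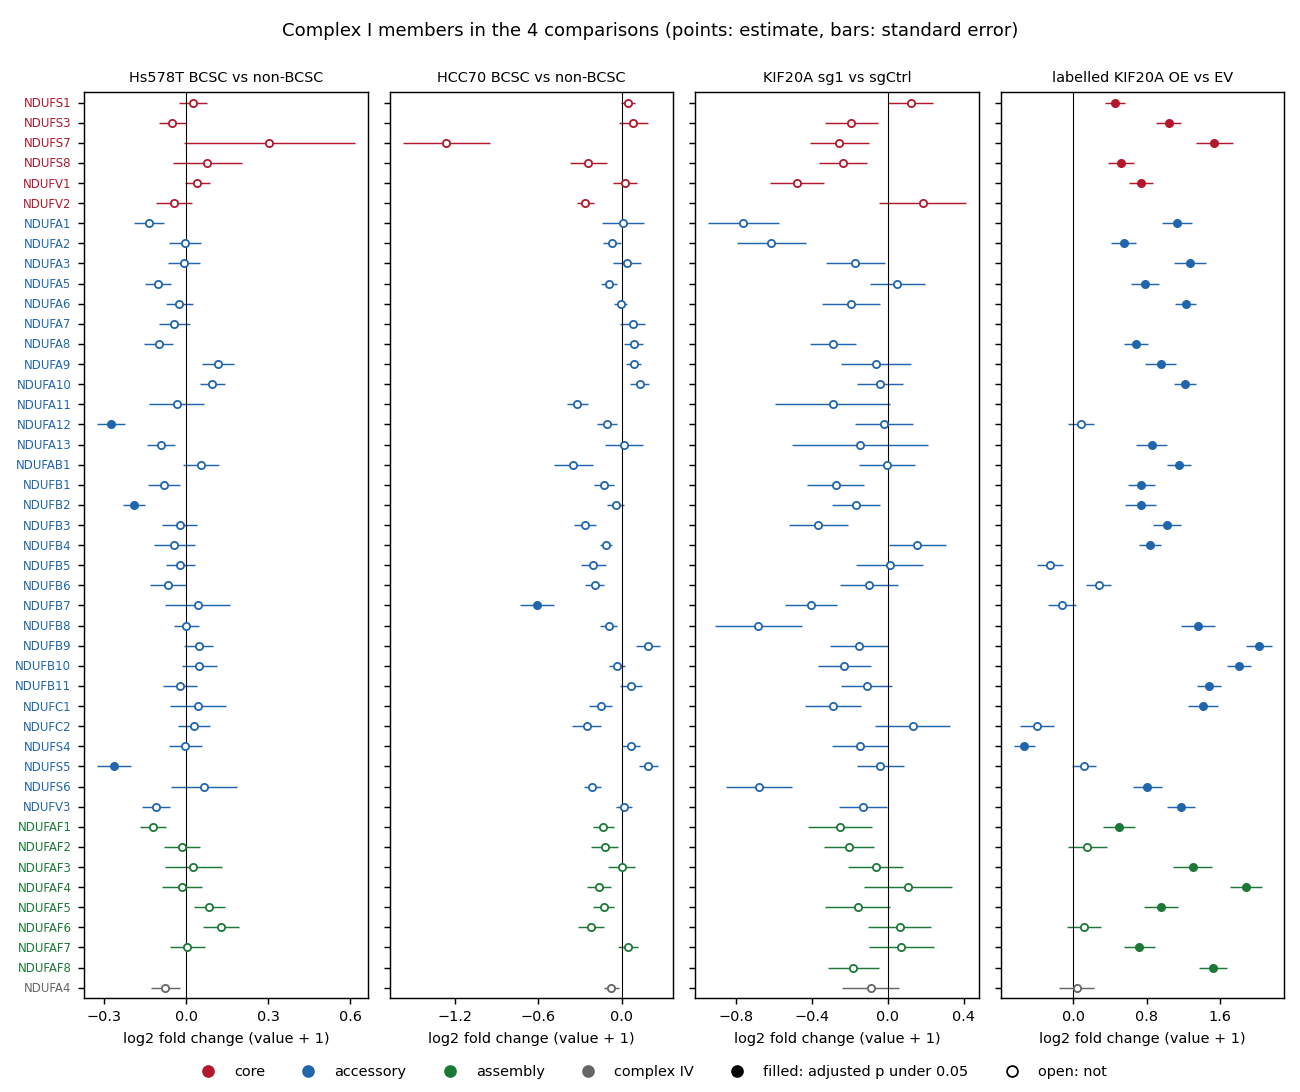
Log2 fold change on the log2(value + 1) scale (points) with its standard error (bars) of the members drawn in the 4 comparisons, coloured by role; filled points have an adjusted p under 0.05, a missing point was not tested, and the scale differs between panels. Filled points number 3 in Hs578T, 1 in HCC70 and 0 after depletion, while most points of the libraries labelled KIF20A OE are filled, from -0.53 for NDUFS4 to 2.02 for NDUFB9.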

How the data were processed

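RNA-Seq was made by the authors from poly-A RNA with stranded, paired-end libraries. The submitters' processing notes list HISAT2 2.0.5, featureCounts 1.5.0-p3 and the build GRCh38. For the sorted lines the authors deposited TPM, reads divided by gene length and scaled per library. The depletion table holds a signal that the authors call CPM, counts divided by 1 factor per library, and the deposited overexpression table holds CPM. Other assembly and marker lists, members and tests were chosen with earlier results of these data known. All sample columns were used.

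In each comparison, genes averaging at least 1 over its 6 libraries were tested on log2(value + 1) by limma 3.58.1 with a trend, run in R 4.3.3. Tests were two-sided, and p was adjusted by Benjamini-Hochberg over all genes of the comparison, with a threshold of 0.05. The scale understates changes of low genes. Since the tables hold no counts, this was the main test throughout. Groups were called apart where their library values did not overlap. A model of the 12 sorted libraries tested the interaction of fraction and line. Whole reads were recovered from the steps between values, with 100.0% of values whole in both MDA-MB-231 tables (tolerance 0.05 reads) and all reads of 96.89% and 98.31% of genes in Hs578T and HCC70. Reads of 739 genes were corrected for a common divisor. The recovered reads were passed to edgeR 4.0.16 and DESeq2 1.42.0 as alternatives, beside a pseudocount of 0.1, a minimum of 10 or none, the median of ratios, a replicate block and each library left out. The fits were tested on simulated data.

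Named genes are the core and assembly members, NDUFB8, members under the minimum, and in each comparison the 8 called members with the smallest p, or the 8 with the smallest p where fewer were called. Others, such as the overlapping genes, NDUFB1 and NDUFB9 by level, NDUFAB1 and NDUFC2 in HCC70, and NDUFS4, NDUFS5, NDUFB5, NDUFB7, NDUFC2 and NDUFA4 in the overexpression comparison, were chosen after their values were seen. Levels per kilobase used the canonical transcript of GENCODE 44, whose long ends lower the level of NDUFA9 and NDUFS1. Exon overlaps come from GENCODE 44, which may differ from the authors' annotation. Promoter windows come from RefSeq. The values of 1 member are counted but not reported here. Python 3.11.15 (pandas 2.3.3, numpy 2.4.6, matplotlib 3.10.9) was used for tables and figures.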

Additional observations from a re-analysis of the deposited data

Results flagged for a closer look

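NDUFS5 was the 1 member whose BCSC effect differed between the lines by the test of the difference itself. The effect was -0.26 in Hs578T and 0.19 in HCC70 on the log2 scale, a difference of -0.45 ± 0.09 SE (adjusted p = 0.0177, limma). All 3 BCSC libraries of Hs578T lay below its 3 non-BCSC libraries, and all 3 of HCC70 above. Over the alternatives that left out 1 library each, the difference stayed between -0.52 and -0.40, but it no longer passed without BCSC replicate 1 of Hs578T (adjusted p = 0.0519) or of HCC70 (adjusted p = 0.0544), or with the replicate block (adjusted p = 0.0592). The effect in HCC70 alone did not pass (adjusted p = 0.147).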

How the results depend on the processing

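No called value reversed under any alternative run, and only the Hs578T median, which is not a test, crossed 0. Of 430 single-member results, 385 kept their side of the threshold, 16 came to pass and 29 ceased to. In Hs578T the replicate block left 1 member called (NDUFA12), and leaving out 1 library gave 0 to 2 members and a median of -0.051 to 0.011. There edgeR called the same members as the main test, while DESeq2 called NDUFA12 and NDUFS5 but not NDUFB2. In HCC70 the count was 2 with a minimum of 10, 0 with no minimum, 5 by edgeR and 8 by DESeq2, and 0 to 1 with 1 library left out; by the median of ratios it was 1 again, but NDUFV2 in place of NDUFB7. Its median was -0.058 with a minimum of 10, -0.103 by the median of ratios, -0.102 by edgeR and -0.104 by DESeq2, and -0.100 to -0.057 with 1 library left out. After depletion DESeq2 called 1 member, and leaving out 1 library gave 0 to 3 and a median of -0.190 to -0.115. In the overexpression comparison the median was 0.471 by the median of ratios, 0.491 by edgeR and 0.490 by DESeq2, and 0.805 to 0.922 with 1 library left out, with 33 to 34 members called. For the difference between lines the count was 0 with the replicate block (NDUFS5, adjusted p = 0.0592) and 0 to 5 with 1 library left out, 5 without Hs578T BCSC replicate 3 and 2 without HCC70 non-BCSC replicate 3. Correlations of deviations for equal replicate numbers ran from -0.16 to 0.19, and the block moved no other count by over 1.5 times. In the EV and KIF20A OE libraries they (0.014 to 0.058) exceeded the highest for unlike numbers (0.009). In HCC70 that of number 2 did (0.185 against 0.115), and in Hs578T and the sgRNA libraries none did. Whether the numbers pair libraries was not settled. Reads of NDUFB8, NDUFV2 and NDUFA7 in MDA-MB-231, and of NDUFA11 in the EV and KIF20A OE libraries, were few, which limits what their values can show.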
